A study of Mus musculus with 4 samples.

Results

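The subject is the pore-forming and auxiliary subunit genes of potassium channels other than the two-pore family, in nuclei of the hypothalamic arcuate nucleus (ARC) of mice. Genes whose symbol begins with Kcn, a family letter and a number were taken, without the two-pore Kcnk genes and without antisense or clone names, when at least 100 barcodes of the 4 libraries held a unique molecular identifier (UMI, a single captured transcript). This gave 64 genes from 79 that matched by symbol, out of 31053 genes in the count tables. Kcng3 with 119 barcodes and Kcna3 with 177 were the members closest to the minimum, and Kcnmb1 with 90, Kcng4 with 87 and Kcne4 with 85 fell just below it. Kcnq1ot1, an RNA antisense to a channel gene, matched the pattern but was not counted as a channel.

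All mice were wildtype C57BL/6J males, 10 weeks old at collection. DOCA-salt mice carried a subcutaneous pellet of deoxycorticosterone acetate (DOCA), a mineralocorticoid, and were offered saline besides water for 3 weeks, and Sham mice had the surgery and water. The treatment is a model of hypertension with low circulating renin. Each of the 4 libraries, DOCA-salt 1 and 2 and Sham 1 and 2, pooled the nuclei of 2 mice from bilateral ARC punches, so the library was the unit of comparison and each treatment had 2.

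Potassium channels set the resting potential, repolarise the action potential and decide how fast a neuron can fire. Voltage-gated channels are built from Kv1 (Kcna), Kv2 (Kcnb), Kv3 (Kcnc) and Kv4 (Kcnd) subunits, from the M-current family (Kcnq) and from ether-a-go-go-related subunits (Kcnh), and the Kcnf, Kcng, Kcns and Kcnv products modify Kv2 channels without forming channels alone. Inward rectifiers (Kcnj) include the glial channels that take up potassium, the channels opened by G proteins and the ATP-sensitive channels that open when energy is short, which AgRP and POMC neurons of the ARC are known to use. Calcium- and sodium-activated channels (Kcnma, Kcnn, Kcnt, Kcnu) follow activity, and Kcnab, Kcne, Kcnip and Kcnmb genes encode auxiliary subunits. The 64 members were 12 inward rectifiers, 8 ether-a-go-go-related genes, 4 Kcnq genes, 6 Kv1, 2 Kv2, 4 Kv3 and 3 Kv4 genes, 8 modifiers, 7 calcium- or sodium-activated genes and 10 auxiliary subunits.

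The libraries held 2805 to 19754 barcodes and 45126915 to 79437196 UMIs, and 2203 to 18907 nuclei were kept, with a median of 2401 to 8215 UMIs per nucleus. The kept nuclei of Sham 1 held 21255137 of its 53257230 UMIs, and those of Sham 2 held 39528518 of 59293582. In DOCA-salt 1 and 2 they held 37442185 of 45126915 and 69382757 of 79437196. The filter thus removed a larger part of the RNA in the Sham libraries, most of it in Sham 1. The deepest nuclei were those of Sham 1, and both Sham libraries were deeper than both DOCA-salt libraries. The medians were 8215 and 3278 UMIs in Sham 1 and 2 against 2401 and 2534 in DOCA-salt 1 and 2. Depth per nucleus and treatment therefore cannot be told apart. Nuclei were assigned to classes by UMIs of marker genes that include no potassium channel, which placed 64.2% to 69.6% of the nuclei of a library, and 141 barcodes occurred in more than 1 library. Neurons, astrocytes, oligodendrocytes, oligodendrocyte precursors, microglia and endothelial cells had at least 10 nuclei in all 4 libraries, but mural cells and tanycytes (glia of the third ventricle) had them in 2. The 6 neuronal markers reached 21.1% to 51.9% of their neuronal level in the sums of other classes, so the sums of every class held neuronal RNA. The punches also differed. DOCA-salt 1 held 26.8 CPM (UMIs of a gene per 1000000 UMIs summed over the class in a library) of the striatal gene Ppp1r1b in its neurons, and the other libraries 2.38 to 2.95. DOCA-salt 2 had 1.62 CPM of Agrp, against 53.2 to 234 elsewhere, and 2187 of the lateral hypothalamic gene Pmch, against 8.43 to 22.

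The promoters of 4 genes are shown because the class results turn on them: Kcnj10 and Kcnj16, which encode the inward rectifier subunits that pair in astrocytes, and Kcnh8 and Kcnip3, which led in oligodendrocyte precursors. Each sequence is the 250 bases before the first annotated start of the gene, read 5′ to 3′ on the gene's strand from RefSeq on GRCm38.p6. Capitals mark TTGGC or GCCAA, the short motif of nuclear factor I proteins, which are known from glial genes. The windows are chr1:172340960-172341209 on the plus strand, chr11:110967783-110968032 on the plus strand, chr17:52602459-52602708 on the plus strand and chr2:127522095-127522344 on the minus strand.
Kcnj10: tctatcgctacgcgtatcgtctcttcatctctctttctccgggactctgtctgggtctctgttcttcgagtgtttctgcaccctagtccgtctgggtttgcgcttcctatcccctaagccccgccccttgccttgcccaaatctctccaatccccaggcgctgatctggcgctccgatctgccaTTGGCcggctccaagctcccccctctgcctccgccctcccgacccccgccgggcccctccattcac
Kcnj16: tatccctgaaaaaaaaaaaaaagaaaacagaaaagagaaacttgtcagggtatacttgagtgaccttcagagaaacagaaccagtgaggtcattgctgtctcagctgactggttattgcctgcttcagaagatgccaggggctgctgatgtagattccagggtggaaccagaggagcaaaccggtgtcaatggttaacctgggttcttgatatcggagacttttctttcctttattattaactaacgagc
Kcnh8: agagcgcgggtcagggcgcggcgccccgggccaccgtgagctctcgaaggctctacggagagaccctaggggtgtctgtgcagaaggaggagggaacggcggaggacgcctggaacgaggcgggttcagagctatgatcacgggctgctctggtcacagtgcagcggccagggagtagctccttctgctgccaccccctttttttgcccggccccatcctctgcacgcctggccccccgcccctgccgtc
Kcnip3: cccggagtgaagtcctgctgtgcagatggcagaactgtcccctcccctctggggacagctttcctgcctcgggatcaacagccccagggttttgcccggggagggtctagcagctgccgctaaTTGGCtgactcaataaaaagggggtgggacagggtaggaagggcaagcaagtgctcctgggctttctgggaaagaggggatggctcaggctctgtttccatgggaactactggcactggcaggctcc
This motif occurred once before Kcnj10 and once before Kcnip3 and not in the other two windows. It was found in 41.5% of 32851 windows of this length and in 40.6% of the 64 windows of the 45 members with an entry. The core of SOX sites, ACAAT or ATTGT, was in none of the 4 windows, against 27.7% of all windows and 18.8% of the members' windows. The 4 genes lie on GRCm38 at chromosome 1, 172341210 to 172374085 (Kcnj10), chromosome 11, 110968033 to 111027968 (Kcnj16), chromosome 17, 52602709 to 52979194 (Kcnh8) and chromosome 2, 127456498 to 127522094 (Kcnip3).

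To ask which classes of nuclei carry which channels, UMIs were summed per class and library, levels were scaled to CPM, and each class was compared with the mean of the others with the library as a block. Of the 64 members, 39 passed the filter on low counts, and a member was called at an adjusted p under 0.05 over all 9823 genes tested. Astrocytes were higher in 9 of the 39 members and lower in 1, where 13.3% of all genes were called higher. The 9 genes were inward rectifiers (Kcnj10, Kcnj16), activity-gated channels (Kcnn2, Kcnn3, Kcnt1), Kv subunits (Kcnd2, Kcnc4, Kcna2) and the Kv4-binding protein Kcnip3. The median log2 fold change over the 39 was -0.10, against 0.02 over all genes, so most members did not lean to astrocytes.

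Kcnj10 encodes the inward rectifier by which astrocytes clear potassium from the extracellular space. Its level in astrocytes was 325 and 339 CPM in DOCA-salt 1 and 2 and 325 and 488 in Sham 1 and 2, and in neurons 51.7, 68.9, 114 and 114 in the same order. Every astrocyte value was above every neuronal value. Astrocytes were the highest class in 3 libraries, and endothelial cells were the highest in Sham 1. The log2 fold change over the other classes was 1.28 ± 0.10 (edgeR adjusted p = 1.44e-16), where the error after ± is the standard error of the fit here and below. Oligodendrocytes were also higher, with a log2 fold change of 0.70 ± 0.11 (edgeR adjusted p = 3.79e-07), with 198 to 311 CPM. Neurons were lower, with a log2 fold change of -1.39 ± 0.10 (edgeR adjusted p = 5.94e-17), and so were tanycytes, with -0.63 ± 0.22 (edgeR adjusted p = 0.0435).

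Kcnj16 encodes the partner subunit that makes the Kcnj10 channel sensitive to pH. Astrocytes held 58.1 and 68 CPM in DOCA-salt 1 and 2 and 49.9 and 77.4 in Sham 1 and 2, and neurons 8.15 to 13.9. The groups of values did not overlap, and the log2 fold change in astrocytes was 1.77 ± 0.20 (edgeR adjusted p = 7.22e-11). Oligodendrocyte precursors, with 37.7 to 56.9 CPM, had a log2 fold change of 1.00 ± 0.31 (edgeR adjusted p = 0.021) and lost that call under a stricter gate (0.62) and without DOCA-salt 1 (0.75), DOCA-salt 2 (1.15) or Sham 1 (0.84). Oligodendrocytes were high in Kcnj10 and, at 11.4 to 23.7 CPM, were not called for Kcnj16.

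The next astrocyte genes are gated by ions inside the cell. Kcnn2, a small-conductance channel opened by calcium, was at 98, 64.3, 81.3 and 64.5 CPM in astrocytes (DOCA-salt 1, DOCA-salt 2, Sham 1 and Sham 2, an order kept below for 4 values) and at 32.4, 33.9, 31.3 and 21.8 in neurons. All 4 astrocyte values were above all 4 neuronal values, with a log2 fold change of 1.71 ± 0.16 (edgeR adjusted p = 2.88e-13), and astrocytes were the highest class in all 4 libraries. Its relative Kcnn3 was higher than in the other classes, with a log2 fold change of 1.12 ± 0.21 (edgeR adjusted p = 2.37e-05), but the astrocyte range of 23.4 to 59.3 overlapped the neuronal range of 19.6 to 40.3. Kcnt1, a channel opened by sodium, was at 152, 179.9, 137 and 99.4 in astrocytes and 111, 106, 92.3 and 92.9 in neurons, with a log2 fold change of 1.20 ± 0.13 (edgeR adjusted p = 2.12e-11) against the other classes. Neurons were called higher in Kcnt1 as well (log2 fold change 0.41 ± 0.11), and oligodendrocytes lower (-0.86 ± 0.17). Kcne1l, an auxiliary subunit too rare for the test, was at 14.8, 21.9, 9.23 and 23.2 in astrocytes and 4.21 to 5.45 in neurons, and astrocytes were the highest class in every library. The lower gene was Kcna1, an axonal Kv1 subunit, with a log2 fold change of -1.09 ± 0.31 (edgeR adjusted p = 0.00658).

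**Figure D1:**
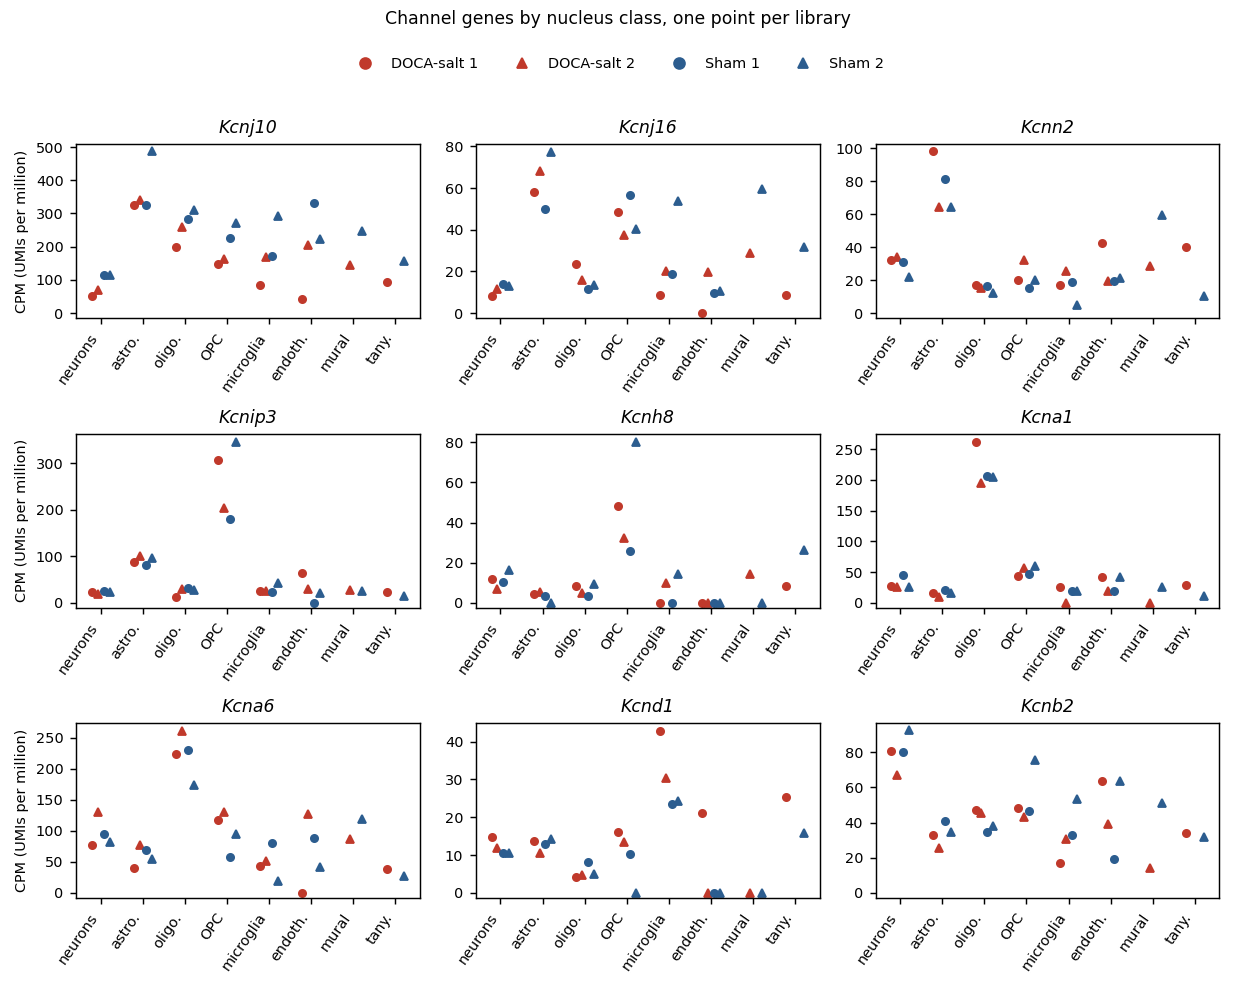
CPM (vertical axis) of 9 channel genes in the summed nuclei of 8 classes (horizontal axis), with 1 point per library that had at least 10 nuclei of the class, DOCA-salt in red and Sham in blue. Kcnj10 was at 325 to 488 CPM in astrocytes, Kcnip3 and Kcnh8 stood out in oligodendrocyte precursors and Kcna1 and Kcna6 in oligodendrocytes.

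Oligodendrocyte precursors were higher in 6 of the 39 members and lower in 1 (Kcnh1, log2 fold change -1.52), where 8.15% of all genes were called higher. Kcnip3 encodes a calcium-binding protein that attaches to Kv4 channels and also acts as a transcriptional repressor. Its level in the precursors was 307 and 205 CPM in DOCA-salt 1 and 2 and 181 and 347 in Sham 1 and 2. That was above the astrocyte levels of 88.9, 99.8, 81.3 and 96.8 and the neuronal levels of 23.4, 19.5, 24.7 and 22.7 in each library. The log2 fold changes were 3.05 ± 0.18 (edgeR adjusted p = 1.49e-21) in precursors, 1.57 ± 0.17 (edgeR adjusted p = 3.15e-11) in astrocytes and -1.01 ± 0.21 (edgeR adjusted p = 6.73e-05) in neurons.

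Both Kv4 subunits with enough counts, to which Kcnip3 binds, were higher in the precursors too. Kcnd3 was at 113, 62, 62.1 and 90.4 CPM in precursors and 57, 43, 62.7 and 71.8 in neurons. The log2 fold change was 1.04 ± 0.22 (edgeR adjusted p = 3.25e-04), though the Sham 1 precursors at 62.1 and the Sham 1 neurons at 62.7 were alike. Kcnd2 was at 218, 154, 160.4 and 246 in precursors and had a log2 fold change of 0.85 ± 0.14 (edgeR adjusted p = 2.45e-06). Precursors were above neurons of the same library in all 4.

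Kcnh8, an ether-a-go-go-like channel, had the largest log2 fold change of the 39 tested members in any class. The level in precursors was 48.4 and 32.3 CPM in DOCA-salt 1 and 2 and 25.9 and 80.4 in Sham 1 and 2. It rested on 5 to 16 UMIs per library and was 247% to 490% of the neuronal level of the same library. Astrocytes had at most 5.29 CPM. Precursors were the highest class in all 4 libraries, and the log2 fold change was 3.85 ± 0.53 (edgeR adjusted p = 7.03e-08).

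Mature oligodendrocytes were higher in 3 of the 39 members and lower in 3, Kcnn2 and Kcnt1 among them, where 13.4% of all genes were called higher. Kcna1 encodes a Kv1 subunit known from the axon beside the node of Ranvier. Oligodendrocytes held 262 and 195 CPM in DOCA-salt 1 and 2 and 206 and 205 in Sham 1 and 2, while the other classes in the test stayed at 26.2 to 45.5 in neurons, 9.83 to 20.3 in astrocytes and 44.4 to 60.3 in precursors. The ranges lay far apart, and the log2 fold change was 3.31 ± 0.15 (edgeR adjusted p = 7.63e-28).

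Kcna6, another Kv1 subunit, was high in oligodendrocytes with a smaller gap to neurons. It was at 224, 259.9, 230.5 and 174 CPM in oligodendrocytes and 76.9, 129.8, 95 and 81.5 in neurons. Oligodendrocytes were the highest class in all 4 libraries, with a log2 fold change of 1.76 ± 0.12 (edgeR adjusted p = 2.17e-19). Tanycytes were called lower in Kcna6 (log2 fold change -1.13 ± 0.32), and so were microglia (-0.86 ± 0.27), in which it was the only member called. Kcna2, which forms mixed channels with Kcna1 in axons, was not called in oligodendrocytes (log2 fold change 0.25 ± 0.14, 94 to 120.5 CPM).

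Microglia, endothelial cells, mural cells and tanycytes had no member called higher, where 6.36%, 4.38%, 0.631% and 9.35% of all genes were. At an unadjusted p under 0.05, in either direction, there were 5, 6, 0 and 12 members, and the shares above are no background for that threshold. DESeq2 called 1, 2, 1 and 0 of 62 members higher. Of all genes it called 841 of 15605, 661 of 14728, 149 of 14728 and 1217 of 15166 higher. The sums of these classes were small. Kcnd1, a Kv4 subunit that the filter removed, was at 42.7 and 30.5 CPM in DOCA-salt 1 and 2 and 23.4 and 24.4 in Sham 1 and 2 in microglia, from 5 or 6 UMIs per library. Neurons held 10.6 to 14.7, and microglia were the highest class in all 4 libraries. Tanycytes were lower in 4 members (Kcnd2, Kcnq3, Kcna6 and Kcnj10), and the median over the 39 was -0.41, against 0.01 over all genes. Their leading genes included cilia genes (Ccdc114, Cfap43, Spef2), and their contrast rested on DOCA-salt 1 and Sham 2.

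Kcnj8 encodes the ATP-sensitive subunit of pericytes and smooth muscle. Mural nuclei held 97.4 and 43.1 CPM in DOCA-salt 1 and 2 and 32.8 and 25.5 in Sham 1 and 2, from 1, 3, 1 and 3 UMIs in 5, 16, 6 and 21 nuclei. Neurons held 0.281 to 0.492 CPM, below every mural value. The filter on low counts removed the gene. Without that filter the log2 fold change in mural cells was 6.09 ± 1.35 (edgeR adjusted p = 0.00245), from the 2 libraries with at least 10 mural nuclei. Without Sham 2 the gene passed the filter, and from the 1 such library left the log2 fold change was 6.35 ± 1.97 (edgeR adjusted p = 0.365) and was not called. Abcc9, which encodes the receptor subunit that surrounds Kcnj8, was at 97.4, 57.5, 65.7 and 76.6 in mural nuclei and 0.492 to 1.4 in neurons, and had a log2 fold change of 6.43 ± 0.87 (edgeR adjusted p = 1.36e-06).

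Neurons were higher in 20 of the 39 members and lower in 4, where 23.9% of all genes were called higher. The median log2 fold change over the 39 members was 0.41, against 0.07 over all genes. Calls came from every family, among them 3 of 5 ether-a-go-go-related genes, 2 of 6 inward rectifiers, 2 of 5 Kv1 genes, 1 of 2 Kv4 genes, 2 of 4 calcium- or sodium-activated genes, 2 of 7 auxiliary subunits and 1 modifier. The lower genes were Kcnj10, Kcnj16, Kcnip3 and Kcnh3.

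Kcnh7, which gives a slow ether-a-go-go-related current, had the largest log2 fold change of the members called higher. It was at 44.1, 48.4, 58 and 57.3 CPM in neurons and 21.7, 15.9, 20.3 and 24.5 in astrocytes, without overlap, with a log2 fold change of 1.16 ± 0.16 (edgeR adjusted p = 3.24e-08). Kcnb2, a Kv2 delayed rectifier, was at 81, 66.8, 80.2 and 92.5 in neurons and 33, 25.7, 40.6 and 34.8 in astrocytes. Its log2 fold change was 0.97 ± 0.11 (edgeR adjusted p = 2.95e-10), and neurons were the highest class in all 4 libraries. Kcnc1, a Kv3 subunit of fast-firing neurons, was at 181, 199, 278 and 224 in neurons and 75.2, 85.4, 107 and 92.9 in astrocytes and had a log2 fold change of 0.92 ± 0.09 (edgeR adjusted p = 1.35e-13). Kcnc2 was likewise highest in neurons in all 4 libraries.

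Kcnj9, a subunit of the channel opened by G proteins, was at 58.4, 38.6, 51.1 and 71.5 CPM in neurons and 21.7, 14.4, 24 and 33.6 in astrocytes, with a log2 fold change of 0.94 ± 0.14 (edgeR adjusted p = 6.78e-08). All neuronal values were above all astrocyte values. Kcnip1, a Kv4-binding protein, had a log2 fold change of 0.79 ± 0.17 (edgeR adjusted p = 1.69e-04), but its range in neurons of 44.4 to 53.9 overlapped that of precursors, 15.5 to 68.6. Astrocyte levels of these 5 genes were between 32.8% and 104% of the neuronal level of the same library, and the 6 neuronal markers reached 24.6% to 33.3% there. How much of the astrocyte level is neuronal RNA was not tested.

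Kcnh3, an ether-a-go-go-like gene of the forebrain, was called lower in neurons, with a log2 fold change of -1.19 ± 0.49 (edgeR adjusted p = 0.045), and 1 library held most of its counts. In DOCA-salt 1 it was at 19.3 CPM in neurons and higher still in glia, at 30.8 in astrocytes, 38.7 in oligodendrocytes and 103 in microglia. The other libraries held 1.1 to 2.32 in neurons and at most 1.29 in those glial classes. Without DOCA-salt 1 the gene did not pass the filter, and DESeq2 gave a log2 fold change of -0.32 that was not called (DESeq2 adjusted p = 0.767). With edgeR it was 0.24 under the stricter gate, -0.91 with all deposited barcodes and -0.19 without Sham 2, and was called in none of these.

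**Figure D2:**
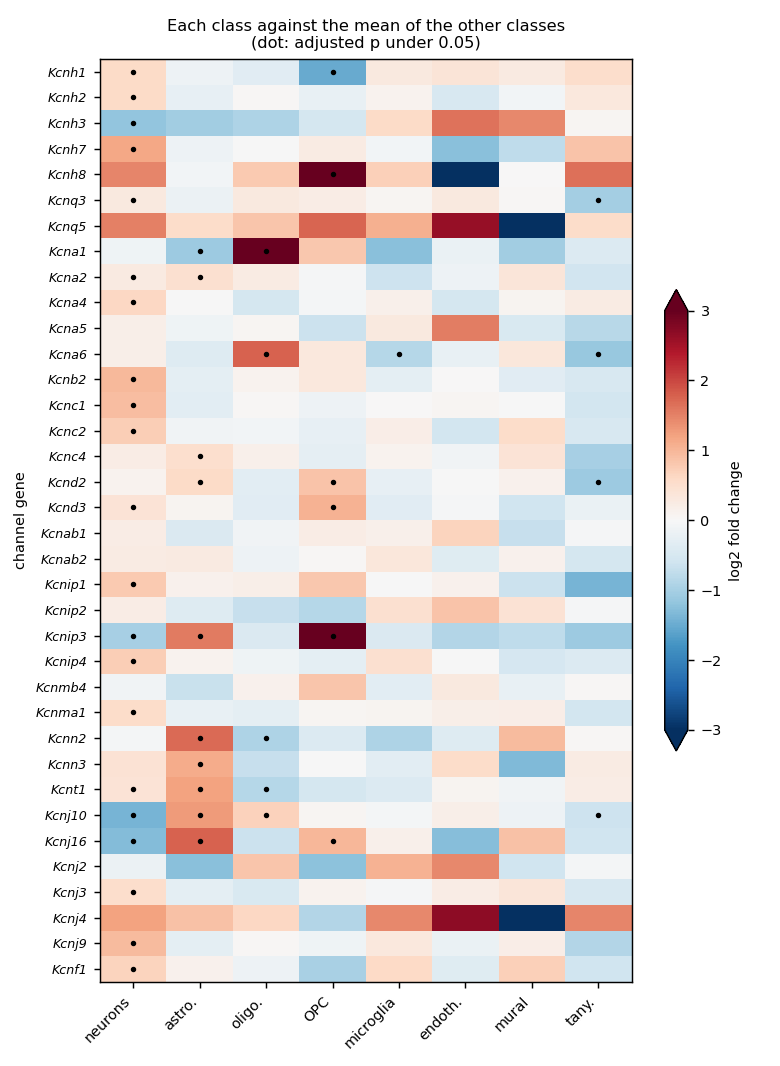
Log2 fold change (colour) of 36 of the 39 tested channel genes (rows, by family) in each of 8 classes against the mean of the other classes (columns), with a dot where the adjusted p was under 0.05. Among the genes drawn, neurons carried 17 positive calls, astrocytes 9, precursors 5 and oligodendrocytes 3.

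Another 16 genes, whose products join channels or shape the same currents, were counted beside the members, and 9 passed the filter. Neurons were higher in 6 of the 9, among them Dpp10 and Dpp6, which bind Kv4 channels, the axonal adhesion genes Cntnap2 and Cntn2, and the Kv2 partner Amigo1. Precursors were higher in Dpp6 (log2 fold change 0.56 ± 0.10) and Dpp10 (0.54 ± 0.16), beside Kcnd2, Kcnd3 and Kcnip3. In oligodendrocytes Cntn2, which clusters Kv1 channels at the axon, was at 320.5, 364, 474 and 446 CPM, with a log2 fold change of 3.52 ± 0.12 (edgeR adjusted p = 2.30e-32). Hcn2 was higher there too, with a log2 fold change of 1.78 ± 0.13 (edgeR adjusted p = 2.41e-18), at 112, 193, 160.2 and 149 CPM against 38, 78.9, 61.9 and 43.5 in neurons. Astrocytes were higher in Lgi1, a secreted protein linked to Kv1 channels, with a log2 fold change of 1.76 ± 0.10 (edgeR adjusted p = 1.09e-21).

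Neurons were next divided by transmitter genes and by neuropeptide genes, and each peptide type was compared with the other neurons of the same libraries. Levels for all neurons, given beside the types, include the type itself. GABA neurons were higher than glutamate neurons in 3 of 59 members and lower in 13, where 4.54% of all genes were higher and 6.83% lower. Kcnq3, an M-current subunit, was at 108, 74, 93.7 and 95.6 CPM in GABA neurons and 165, 168, 208 and 236 in glutamate neurons. The ranges did not overlap, and the log2 fold change was -1.07 ± 0.10 (edgeR adjusted p = 1.44e-05).

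Kcnj5, which forms G protein-gated channels, was at 7.67, 9.24, 9.64 and 5.75 CPM in GABA neurons and 14.8, 18.9, 31.7 and 23.4 in glutamate neurons, with a log2 fold change of -1.35 ± 0.22 (edgeR adjusted p = 0.00146). Kcnmb4, the neuronal partner of the large-conductance calcium-activated channel, was at 18.5, 16.7, 19.7 and 14.4 in GABA neurons and 27.9, 42, 27.2 and 41.5 in glutamate neurons, with a log2 fold change of -1.14 ± 0.17 (edgeR adjusted p = 6.29e-04). For both genes every glutamate value was above every GABA value. The 3 higher genes were Kcnh8 (log2 fold change 0.92), Kcnt2 (0.73) and Kcnj10 (0.41). DESeq2 called no member higher in GABA neurons and 11 lower, and with edgeR there were 0 higher without Sham 2 and 1 under the stricter gate. Of all 13680 genes DESeq2 called 284 higher and 553 lower.

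Over 7 peptide types, 35 of 62 tested members were called in at least 1, of which 25 were called lower only, 6 higher only and 4 in both directions. The same counts were not made over all genes, so they do not set channels apart. Shares of all genes are given below for each type alone. Kcnh8, also called higher in oligodendrocyte precursors, was called higher in 6 of the 7 types. Kcna2, Kcnh7 and Kcnip4 were called lower in 5 types and higher in none. In the 4 types with the most calls the median over the members lay below that over all genes: -0.29 against -0.01 in Agrp, -0.30 against -0.03 in Pomc, -0.19 against -0.04 in Ghrh and -0.63 against -0.06 in suprachiasmatic-type neurons. DESeq2 gave fewer calls in every type, from 1 to 7, and it called fewer of all genes in every type too.

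Agrp neurons, which drive feeding, were higher in 3 of 62 members and lower in 14, where 5.45% of all genes were higher and 7.05% lower. DOCA-salt 2 held only 2 such nuclei and was not in this test. Kcnh8 was at 36.4, 17.2 and 37.8 CPM in Agrp neurons of DOCA-salt 1, Sham 1 and Sham 2, and at 11.8, 10.5 and 16.4 in all neurons. Agrp neurons were above in each library, with a log2 fold change of 1.45 ± 0.20 (edgeR adjusted p = 8.38e-09). Kcnf1, a silent modifier of Kv2 channels, was also higher, at 80.4, 46.7 and 52.7 against 43.9, 22.5 and 26.7, with a log2 fold change of 0.98 ± 0.14 (edgeR adjusted p = 9.76e-09).

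Kcns2, a further Kv2 modifier, was at 6.18, 12.3 and 5.97 CPM in Agrp neurons of those libraries and 18.3, 21.1 and 18.5 in all neurons. It was lower in each, with a log2 fold change of -1.49 ± 0.29 (edgeR adjusted p = 4.39e-05). Kcnh3 was called lower too (log2 fold change -1.63), but not with DESeq2 (-1.21), and without DOCA-salt 1 the log2 fold change was -0.07. Kcna2, an axonal Kv1 subunit, was at 59.8, 58.9 and 82.6 against 96.9, 152 and 119.7 in all neurons, with a log2 fold change of -0.80 ± 0.11 (edgeR adjusted p = 8.20e-09).

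Pomc neurons, which restrain feeding, were higher in 2 of 62 members and lower in 18, where 2.88% of all genes were higher and 4.35% lower. Of the genes with the largest differences, Kcnh5, an ether-a-go-go channel, was at 3.43, 5.03, 3.59 and 0.833 CPM in Pomc neurons and 7.27, 5.1, 9.98 and 9.77 in all neurons, with a log2 fold change of -1.90 ± 0.51 (edgeR adjusted p = 0.00522). Kcnj2, a strong inward rectifier, was at 3.43, 5.03, 3.59 and 2.5 against 13.9, 10.1, 7.8 and 5.87, with a log2 fold change of -1.58 ± 0.46 (edgeR adjusted p = 0.0126). Both were below all neurons in every library, but Kcnh5 in DOCA-salt 2 was nearly alike, at 5.03 against 5.1. The levels rest on very few UMIs of these genes. The Pomc sums held 198949 UMIs of all genes in DOCA-salt 2 and 278647 in Sham 1. Kcns2 was at 5.72, 15.1, 25.1 and 5 against 18.3, 19.1, 21.1 and 18.5, above all neurons in Sham 1 and below in the others, with a log2 fold change of -1.22 ± 0.30 (edgeR adjusted p = 0.00127). Kcnj3, the common subunit of G protein-gated channels, was higher (log2 fold change 0.53 ± 0.13), at 69.8, 20.1, 100.5 and 65 against 48.6, 45.4, 46.4 and 45.6. DOCA-salt 2, with 25 Pomc nuclei, went the other way. DESeq2 kept none of the calls of Kcnh5, Kcnj2 and Kcns2, and edgeR lost all 3 without Sham 2 (-1.06, -1.74 and -0.80) and those of Kcnj2 (-1.22) and Kcns2 (-1.04) without DOCA-salt 1. Kcnj2 was not called with all deposited barcodes either, at -0.77.

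Ghrh neurons, which release growth hormone-releasing hormone, were higher in 3 of 62 members (Kcnd2, Kcnt2 and Kcnh8) and lower in 8, where 2.47% of all genes were higher and 2.46% lower. Kcnh1, an ether-a-go-go channel, was at 8.51, 11.5, 6.9 and 8.94 CPM in Ghrh neurons and 24.3, 16.9, 35.1 and 31.8 in all neurons. Each library showed the lower level, and the log2 fold change was -1.60 ± 0.34 (edgeR adjusted p = 1.82e-04). Kcns2 was at 7.09, 7.66, 13.8 and 7.15 against 18.3, 19.1, 21.1 and 18.5, with a log2 fold change of -1.30 ± 0.38 (edgeR adjusted p = 0.0182). Kcna1 was at 9.92, 19.2, 6.9 and 19.7 against 28.1, 26.2, 45.5 and 26.5, with a log2 fold change of -1.04 ± 0.29 (edgeR adjusted p = 0.0103). All 4 libraries were lower for both genes. In DOCA-salt 2 and Sham 1 the levels of the 3 genes rest on very few UMIs. The Ghrh sums there held 261012 and 144859 UMIs of all genes, from 37 and 11 nuclei. DESeq2 kept none of the 3 calls. With edgeR the call of Kcns2 was lost without DOCA-salt 1 (-1.23), DOCA-salt 2 (-1.28) or Sham 2 (-1.26) and that of Kcna1 without DOCA-salt 1 (-0.78) or Sham 1 (-0.87).

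Tac2 neurons, which make neurokinin B, were higher in 2 of 62 members (Kcnd2 and Kcnh8) and lower in 3, where 1.01% of all genes were higher and 0.773% lower. Kcnj5 was at 6.16, 4.07, 5.88 and 4.03 CPM in Tac2 neurons and 12, 10.4, 11.7 and 10.3 in all neurons, lower in every library, with a log2 fold change of -1.23 ± 0.27 (edgeR adjusted p = 0.0191). Kcnab1, a Kv1 auxiliary subunit, was at 19.4, 31.1, 27.4 and 21 against 42.7, 35.8, 38.7 and 41.6, with a log2 fold change of -0.67 ± 0.15 (edgeR adjusted p = 0.0237). Kcnh8 was at 32.6, 7.64, 23.5 and 29.8, above all neurons in every library, with a log2 fold change of 1.02 ± 0.22 (edgeR adjusted p = 0.016). Without Sham 2 no member was called, without Sham 1 there was 1 call and without DOCA-salt 1 there were 2. Without DOCA-salt 2 there were 14. All 3 of these calls were lost with all deposited barcodes, at -0.83 for Kcnj5, -0.55 for Kcnab1 and 0.84 for Kcnh8, and those of Kcnj5 (-1.21) and Kcnab1 (-0.69) with DESeq2.

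Sst neurons were higher in 4 of 61 members and lower in 4, where 1.43% of all genes were higher and 1.67% lower. Kcna5, a Kv1 subunit, was at 30.5, 12.8, 31.8 and 43.6 CPM in Sst neurons and 27.6, 9.24, 11 and 21.7 in all neurons, with a log2 fold change of 0.66 ± 0.17 (edgeR adjusted p = 0.0124). Kcnq5 was nearly even over the libraries, at 25.8, 25, 25.4 and 24.9 against 19.5, 13.7, 19.1 and 17.3, with a log2 fold change of 0.62 ± 0.17 (edgeR adjusted p = 0.018). Kcnh8 was higher by 0.77 ± 0.20 (edgeR adjusted p = 0.0148), at 19.5, 12.2, 19.1 and 24.9. Sst neurons were above all neurons in every library for the 3 genes. DESeq2 called none of the 3, and with edgeR none was called without Sham 2, at 0.45 for Kcna5, 0.64 for Kcnq5 and 0.84 for Kcnh8. The call of Kcna5 was also lost without Sham 1 (0.58), that of Kcnq5 with all deposited barcodes (0.46) or without DOCA-salt 2 (0.47), and that of Kcnh8 without DOCA-salt 1 (0.76) or DOCA-salt 2 (0.72).

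Neurons gated by Th, Slc6a3, Ddc and Slc18a2, whose leading genes also included Hdc of histamine neurons, had no member called higher and 5 called lower of 62, where 1.38% of all genes were higher and 1.35% lower. DESeq2 called none of them higher, and 102 of 14595 genes in all. Kcnq3 was at 87.1, 78.1, 61.8 and 80.4 CPM in this type and 126, 102, 117 and 129 in all neurons, with a log2 fold change of -0.62 ± 0.12 (edgeR adjusted p = 9.69e-05). Kcnip2, a Kv4-binding protein, was at 28, 23.1, 6.51 and 14.5 against 44.2, 31.7, 28 and 26, with a log2 fold change of -0.79 ± 0.21 (edgeR adjusted p = 0.0204). Kcnab1 was at 16.2, 31.8, 9.76 and 30.5 against 42.7, 35.8, 38.7 and 41.6, with a log2 fold change of -0.78 ± 0.20 (edgeR adjusted p = 0.0114). The type was below all neurons in each library for the 3 genes. The calls of Kcnip2 and Kcnab1 were lost with DESeq2 and without DOCA-salt 1 (-0.86 and -0.57) or Sham 1 (-0.66 and -0.64), and that of Kcnip2 also without Sham 2 (-0.76).

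Neurons gated by Vip, Avp, Lhx1 and Six6, genes of the suprachiasmatic nucleus and its border, were higher in 3 of 61 members and lower in 13, where 3.07% of all genes were higher and 4.31% lower. In DOCA-salt 2, Sham 1 and Sham 2, Kcnh8 was at 51.7, 73.8 and 88.3 CPM. DOCA-salt 1 had no Kcnh8 UMI in its 10 nuclei, a count of 0 that allows up to 38.8 CPM. All neurons held 6.78 to 16.4, and the log2 fold change was 2.66 ± 0.28 (edgeR adjusted p = 9.00e-19). Kcnc2, a Kv3 subunit, was at 25.9, 171, 135 and 100.4 against 46.6, 57.5, 49.2 and 52.5, higher in all libraries but DOCA-salt 1, with a log2 fold change of 1.30 ± 0.17 (edgeR adjusted p = 2.56e-12).

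Kcnip1 was at 38.8, 9.63, 30.7 and 8.03 CPM in the suprachiasmatic-type neurons and 46, 44.4, 49.9 and 53.9 in all neurons, with a log2 fold change of -1.75 ± 0.31 (edgeR adjusted p = 1.60e-06). Kcnj3 was at 25.9, 14.4, 18.4 and 16.1 against 48.6, 45.4, 46.4 and 45.6, with a log2 fold change of -1.52 ± 0.30 (edgeR adjusted p = 3.06e-05). Both were lower in every library, and both lost the call without DOCA-salt 2 (-1.35 and -1.37), which held most nuclei of the type. Kcnip1 lost it with DESeq2 too (-1.54). Among the partner genes Dpp10 was lower in Pomc neurons (log2 fold change -0.87 ± 0.12), Ghrh neurons (-0.66 ± 0.14) and suprachiasmatic-type neurons (-0.85 ± 0.18) and higher in Sst neurons (0.49 ± 0.09). Lrrc38, which shifts the gating of the Kcnma1 channel, was higher in Tac2 neurons, with a log2 fold change of 2.70 ± 0.53 (edgeR adjusted p = 0.00771).

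**Figure D3:**
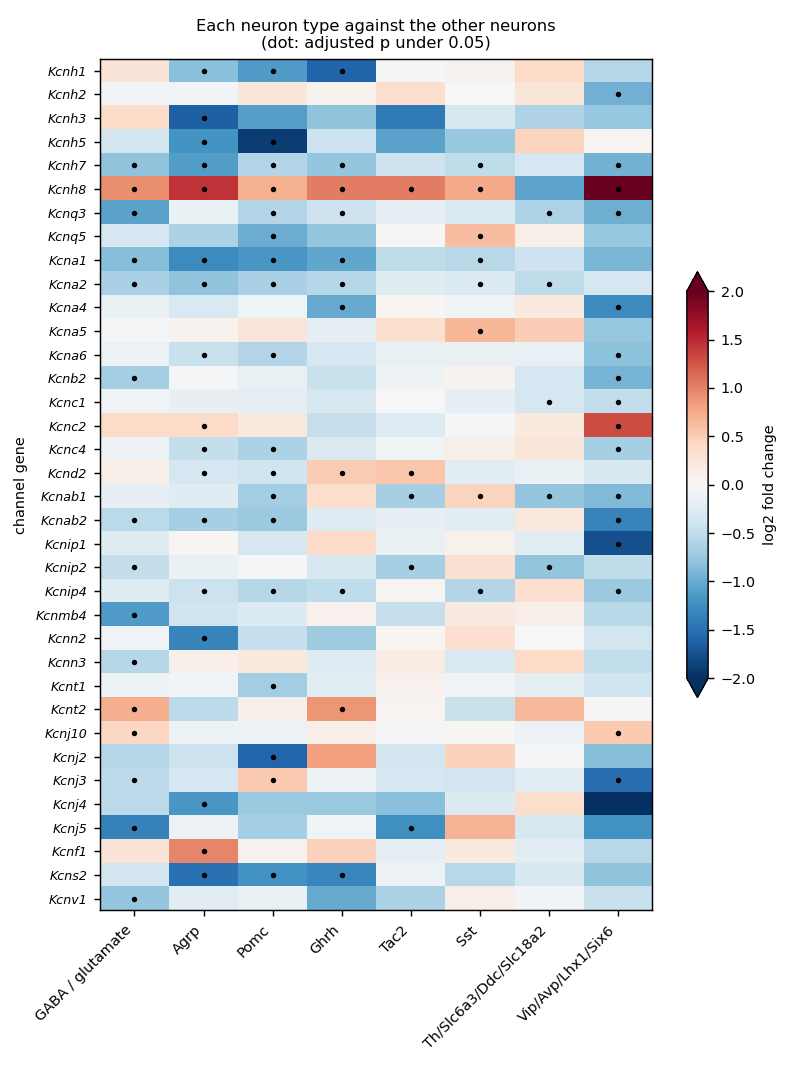
Log2 fold change (colour) of 36 channel genes called in at least 1 comparison (rows) for GABA against glutamate neurons and for 7 neuron types against the other neurons (columns), with a dot where the adjusted p was under 0.05. Kcnh8 was positive and called in 6 of the 7 types, and Kcna2, Kcnh7 and Kcnip4 were negative and called in 5.

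To ask what DOCA-salt changed, the summed counts of 2 DOCA-salt and 2 Sham libraries were compared within each class. No member passed the test in any of 9 classes: 0 of 64 members tested in all nuclei, 63 in neurons, 62 in GABA neurons, 49 in glutamate neurons, 37 in astrocytes, 37 in oligodendrocytes, 21 in precursors, 12 in microglia and 8 in endothelial cells. Of all genes, edgeR called 0.0% in neurons, 0.0% in all nuclei, 0.0% in GABA neurons, 0.0262% in glutamate neurons, 0.0403% in astrocytes, 0.0099% in oligodendrocytes, 0.0537% in precursors, 0.0201% in microglia and 0.0424% in endothelial cells. At an unadjusted p under 0.05 there were 8, 8, 7, 7, 2, 3, 2, 0 and 0 members in the same order as the members tested. The shares of all genes above are at the adjusted threshold and are no background for these counts. DESeq2 called 1 member, Kcnj10, in all nuclei and in neurons and none in the other 7 classes, where its own filter left 3 members in astrocytes. Of all genes DESeq2 called 102 of 15932 in all nuclei, 88 of them lower, and 67 of 15899 in neurons, 62 of them lower. With 2 libraries per group an exact two-sided permutation test of a single gene cannot go below p = 0.333. Outside the members, Bc1 was lower in DOCA-salt in all 9 classes, by log2 fold changes of -2.87 (endothelial cells) to -3.55 (microglia). In neurons it was at 193, 291, 1992 and 2702 CPM. EdgeR called it in glutamate neurons, astrocytes, oligodendrocytes, precursors, microglia and endothelial cells. Whether the difference in Bc1 and those in channel genes share a source was not tested.

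In neurons the median log2 fold change over the 63 members was -0.06, against 0.02 over all genes tested, and in astrocytes -0.15 over 37 members, against 0.02. In neurons 12 members had both DOCA-salt levels above both Sham levels and 12 had both below, where 25.7% of all genes were above and 17.0% below. In astrocytes 3 of 37 members were above and 10 below, where 21.2% of all genes were above and 18.6% below. Leaving out DOCA-salt 1, the library with striatal genes, brought member calls in neurons, and so did leaving out DOCA-salt 2, the library with almost no Agrp. Each of these fits had a single DOCA-salt library. The calls were not set against the share of all genes called there and are not read as a result about channels. The member called in both was Kcnj10.

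Kcnj10 separated the treatments in neurons. Its level was 51.7 and 68.9 CPM in DOCA-salt 1 and 2 and 114 and 114 in Sham 1 and 2, with both DOCA-salt values below both Sham values. The log2 fold change was -0.95 ± 0.20 (edgeR adjusted p = 0.621), which did not pass. DESeq2 gave a log2 fold change of -0.95 ± 0.24 (DESeq2 adjusted p = 0.025). Without the filter on low counts it was -0.92 ± 0.20 (edgeR adjusted p = 0.000809), without DOCA-salt 1 -0.72 ± 0.14, and without DOCA-salt 2 -1.22 ± 0.15. The gene was not called by edgeR with RLE factors, the stricter gate, all deposited barcodes, thinned sums or the replicate number as a block. Nor was it called without Sham 1 or without Sham 2.

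GABA neurons held 48.9, 66.4, 102 and 106 CPM of Kcnj10 and glutamate neurons 32.1, 57.8, 68 and 74.2, without overlap of the treatments in either. The same held in oligodendrocytes, precursors and microglia, but not in astrocytes or tanycytes. Endothelial cells are not part of this list. All these sums came from the same libraries, so the classes are not independent. Shares of all genes without overlap were counted in neurons and astrocytes only. Oligodendrocytes were at 198, 259.9, 284 and 311 CPM, precursors at 149, 164, 228 and 271 and microglia at 85.5, 168, 173 and 292, with both DOCA-salt values below both Sham values in each. Astrocytes were at 325, 339, 325 and 488, where Sham 1 and DOCA-salt 1 were alike and the log2 fold change was -0.31 ± 0.25 (edgeR adjusted p = 0.76). The log2 fold change in neurons minus that in astrocytes was -0.68 ± 0.14 (edgeR adjusted p = 7.08e-04). Kcnj10 was the 1 of 61 members called in that test of the difference, where 0.45% of all genes were called. An unadjusted p under 0.05 was found for 4 members, and no share of all genes is given for that threshold.

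Glial RNA in the neuronal sums moved with the libraries. The 7 astrocyte markers together were at 1171, 1804, 1758 and 1603 CPM in the neurons, which is 9.98%, 14.2%, 18.7% and 15.2% of their level in astrocytes. Oligodendrocyte markers were at 329, 1057, 1678 and 1244, or 1.92%, 5.15%, 8.09% and 4.83% of their level in oligodendrocytes. Both lists were lowest in DOCA-salt 1, where neuronal Kcnj10 was lowest too. In CPM oligodendrocyte markers were lower in both DOCA-salt libraries than in both Sham libraries. The astrocyte list in CPM was highest in DOCA-salt 2, where neuronal Kcnj10 was also below both Sham libraries. As a share of its level in astrocytes, that list was lower in both DOCA-salt libraries than in both Sham libraries. The oligodendrocyte share of DOCA-salt 2, 5.15%, lay between the Sham shares of 8.09% and 4.83%. The part of this RNA in the Kcnj10 difference was not tested.

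Kcnj16 in neurons was at 8.15, 11.6, 13.9 and 13.1 CPM. The treatments did not overlap, but the log2 fold change of -0.47 ± 0.26 (edgeR adjusted p = 0.672) was not called. In astrocytes it was at 58.1, 68, 49.9 and 77.4 and overlapped, with a log2 fold change of -0.04 ± 0.28.

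Beside Kcnj10, the 4 members with the largest differences in neurons among those whose groups did not overlap were Kcna3, Kcnj6, Kcnj2 and Kcnh1. Kcnj6, a G protein-gated subunit, was at 23.7 and 8.91 CPM in DOCA-salt 1 and 2 and 30.6 and 30.4 in Sham 1 and 2. DOCA-salt 2 was far below the others, and the log2 fold change of -0.96 ± 0.40 (edgeR adjusted p = 0.621) became -1.76 ± 0.18 (edgeR adjusted p = 0.00292) without DOCA-salt 1. Kcnh1 was at 24.3, 16.9, 35.1 and 31.8, again lowest in DOCA-salt 2, with a log2 fold change of -0.74 ± 0.20. Kcnj2 was at 13.9, 10.1, 7.8 and 5.87, with both DOCA-salt values above both Sham values, with a log2 fold change of 0.78 ± 0.27. Kcna3, a rare Kv1 subunit, was at 0.914, 0.307, 1.76 and 1.14, with a log2 fold change of -1.33 ± 0.61. None of the 4 was called with all libraries and the filter on low counts. Without that filter Kcnj6 was called, at -0.94 ± 0.22 (edgeR adjusted p = 0.00426), and without DOCA-salt 1 Kcnh1 was called, with a log2 fold change of -0.97.

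**Figure D4:**
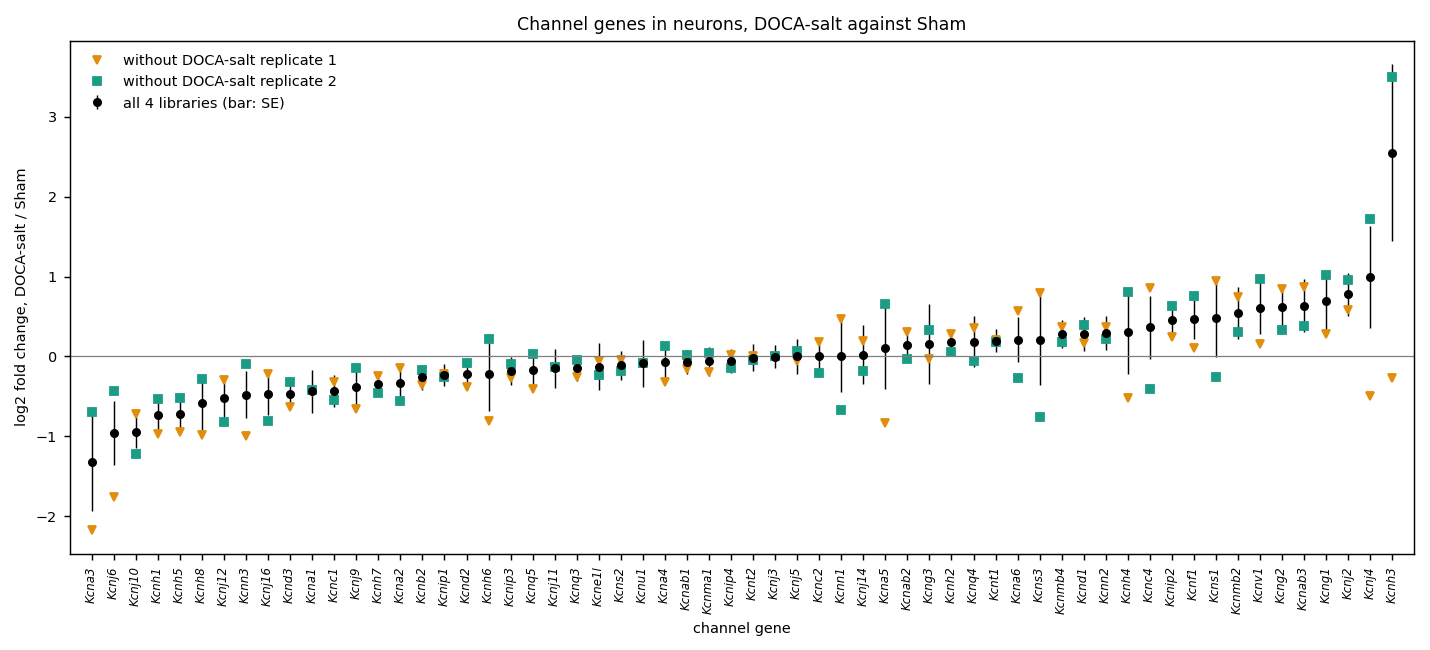
Log2 fold change between DOCA-salt and Sham (vertical axis) of 60 of the 63 channel genes tested in neurons (horizontal axis, sorted), in black with the standard error for all 4 libraries, and with DOCA-salt 1 (orange) or DOCA-salt 2 (green) left out. Kcnj10 lay at -0.95 and stayed below 0 with either library left out, whereas Kcnh3 at 2.55 depended on DOCA-salt 1.

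Kcnh3 and Kcnj4 were high in DOCA-salt 1 alone. Kcnh3 was at 19.3, 1.35, 2.32 and 1.1 CPM in neurons, and the DOCA-salt 2 value lay between the Sham values. Kcnj4, a strong inward rectifier of forebrain neurons, was at 21, 4.28, 5.76 and 6.32, with DOCA-salt 2 below both Sham libraries. Without DOCA-salt 2 both were called, at 3.50 ± 0.36 (edgeR adjusted p = 0.00405) and 1.72 ± 0.21 (edgeR adjusted p = 0.00766). Kcnf1 was also highest in DOCA-salt 1, at 43.9, 26.4, 22.5 and 26.7. The striatal genes Ppp1r1b, Adora2a, Drd1 and Drd2 together were at 73.0 CPM in neurons of that library and at 17.6 to 23.8 in the others, and 157 in its oligodendrocytes against 13.5 to 22.9. The part of striatal RNA in the values of Kcnh3, Kcnj4 and Kcnf1 was not tested.

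Without DOCA-salt 1, the neuronal calls included Kcnj10, Kcnh1, Kcnn3, Kcnd3, Kcnh5 and Kcnj6, lower, and Kcnc4, Kcna6 and Kcng2, higher. They compare a single DOCA-salt library with both Sham libraries. Kcnn3 was at 38.7, 19.6, 40.3 and 38 CPM, where DOCA-salt 1 lay within the Sham range and DOCA-salt 2 well below it. DOCA-salt 2 was also the library with least Agrp and most Pmch, Hcrt (549.5 CPM, against 1.83 to 13.8) and Avp (484, against 4.09 to 175), and the part of that make-up in these values was not tested.

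Subunits of the ATP-sensitive channel were measured by Kcnj11 and its receptor gene Abcc8. Kcnj11 was at 11.4 and 10.6 CPM in DOCA-salt 1 and 2 and 13.9 and 10 in Sham 1 and 2 in neurons, overlapping, with a log2 fold change of -0.15 ± 0.25. Abcc8 was at 14.9, 14.9, 9.34 and 10.7, above both Sham values in both DOCA-salt libraries, with a log2 fold change of 0.53 ± 0.20 (edgeR adjusted p = 0.621). It was not called.

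Of the other G protein-gated subunits, Kcnj3 was at 48.6, 45.4, 46.4 and 45.6 CPM in neurons, with a log2 fold change of -0.0024 ± 0.14. Kcnj5 was at 12, 10.4, 11.7 and 10.3, with a log2 fold change of 0.0013 ± 0.22. These levels differed little between any libraries. Kcnj9 was at 58.4, 38.6, 51.1 and 71.5, lowest in DOCA-salt 2 and highest in Sham 2, with a log2 fold change of -0.38 ± 0.23.

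The M-current genes Kcnq3 and Kcnq5 overlapped between treatments in neurons. Kcnq3 was at 126, 102, 117 and 129 CPM with a log2 fold change of -0.15 ± 0.17, and Kcnq5 at 19.5, 13.7, 19.1 and 17.3 with a log2 fold change of -0.18 ± 0.22. DOCA-salt 2 was the lowest library for Kcnq3 and Kcnq5.

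Calcium-activated channels gave no call either. Kcnma1, the large-conductance pore, was at 199, 159.7, 175 and 191 CPM in neurons and overlapped, with a log2 fold change of -0.06 ± 0.18. Its partner Kcnmb4 was at 22.8, 24.4, 18.3 and 19.8, with both DOCA-salt values above both Sham values, with a log2 fold change of 0.28 ± 0.17 (edgeR adjusted p = 0.683). Kcnn2 had the same order, at 32.4, 33.9, 31.3 and 21.8, with a log2 fold change of 0.29 ± 0.22 (edgeR adjusted p = 0.719). Kcnn1 was at 2.7, 5.61, 4.99 and 3.29 and overlapped, with a log2 fold change of 0.0089 ± 0.45.

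Among voltage-gated genes Kcnc1 was at 181, 199, 278 and 224 CPM in neurons, with both DOCA-salt values below both Sham values and a log2 fold change of -0.43 ± 0.20 (edgeR adjusted p = 0.647). Kcnd2 was at 134, 103, 121 and 149 and its partner Kcnip4 at 84.5, 89.4, 92.4 and 85. Both overlapped, with log2 fold changes of -0.23 ± 0.19 and -0.06 ± 0.15.

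In astrocytes, the members named for large differences without overlap came from few UMIs. Kcnip2 was at 30.8 and 20.4 CPM in DOCA-salt 1 and 2 and 11.1 and 14.2 in Sham 1 and 2, with a log2 fold change of 0.94 ± 0.44 (edgeR adjusted p = 0.505). Kcnj9 was at 21.7, 14.4, 24 and 33.6 with a log2 fold change of -0.75 ± 0.39. Both DOCA-salt values were below both Sham values for this gene, which was called higher in neurons than in the other classes. Kcnip1 was at 23.9, 22.7, 51.7 and 24.5, where Sham 1 stood apart, with a log2 fold change of -0.67 ± 0.38. Kcna1 was at 16, 9.83, 20.3 and 16.8, with a log2 fold change of -0.56 ± 0.47.

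**Figure D5:**
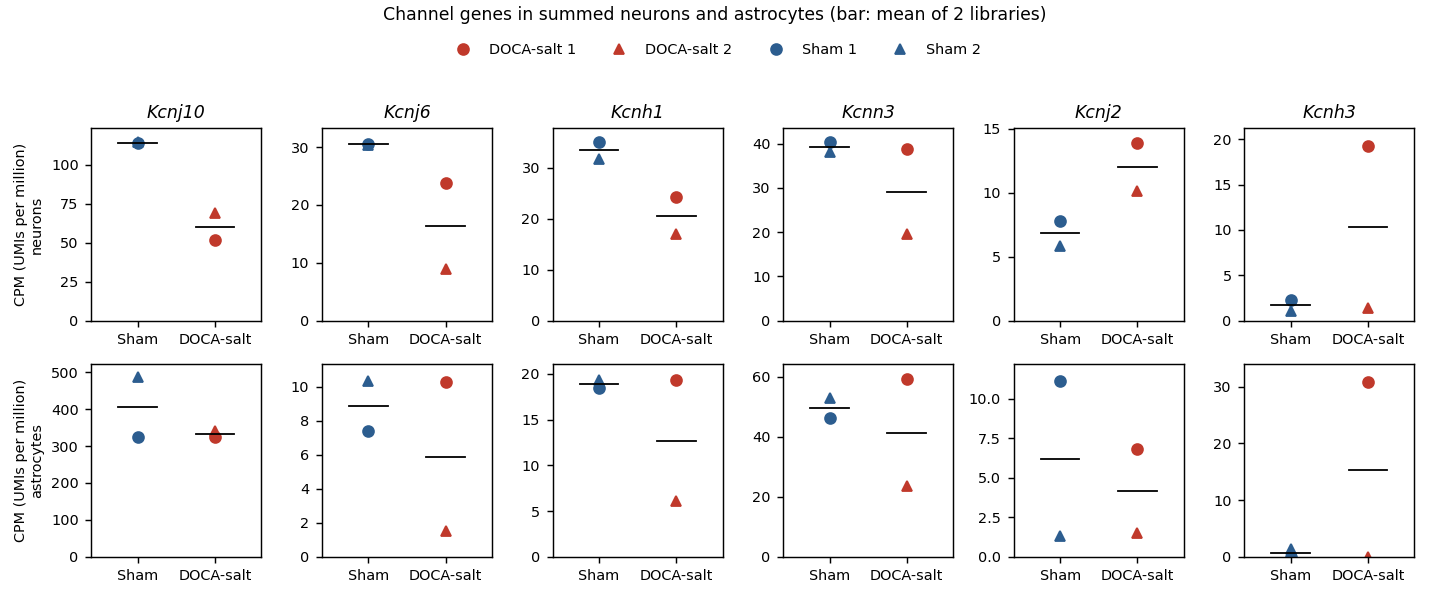
CPM (vertical axis) of 6 channel genes in summed neurons (upper row) and astrocytes (lower row), with 1 point per Sham (blue) and DOCA-salt (red) library and the group mean as a bar. Neuronal Kcnj10 was 51.7 and 68.9 in DOCA-salt and 114 in both Sham libraries, and Kcnh3 was high in DOCA-salt 1 in both classes.

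None of the partner genes was called between treatments in the 9 classes with edgeR or DESeq2. In neurons 2 of 14 tested had an unadjusted edgeR p under 0.05, with no share of all genes at that threshold beside it. These were Abcc8 and Cntn2, the latter at 56.7, 57.2, 96.7 and 75.9 CPM in neurons, with a log2 fold change of -0.63 ± 0.18. Cntn2 was called higher in oligodendrocytes than in the other classes, and the oligodendrocyte markers in neurons had the order of libraries given above. Kcnq1ot1 was at 1251, 756, 1154 and 1329.9 CPM in neurons, with a log2 fold change of -0.35 ± 0.26 between treatments (edgeR adjusted p = 0.723). Against the other classes it was higher in neurons by 0.99 ± 0.09 (edgeR adjusted p = 1.07e-14).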

How the data were processed

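The authors counted UMIs per gene and barcode with Cell Ranger 3.0.1 on mm10 and deposited whole-number counts for barcodes called as nuclei. The paper lists intronic reads apart from reads mapped to the transcriptome, and the transcriptome share was below the exonic share in each library. It does not state in words whether intronic reads were counted. Genes whose reads overlap a neighbour cannot be told apart from it, which touches Kcnip1 among the members named.

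Nuclei with over 200 and under 7000 genes, under 25000 UMIs and under 15% mitochondrial UMIs were kept, the limits of the study. Doublets were not called. A nucleus was placed in a glial or vascular class with at least 4 UMIs of its markers from 2 or more different genes, a marker share at least 3 times (astrocytes, oligodendrocytes) or 6 times (other classes) that of its library, and a neuronal marker share of at most 0.7 times, and nuclei that passed for 2 such classes were left out. Neurons needed 8 neuronal marker UMIs and a share of at least 0.8 times. Transmitter classes needed 2 UMIs of their genes and none of the other's, and peptide types 3 UMIs and 6 times the share. Cut-offs were set after looking at the marker distributions. The endothelial leading genes included the mural gene Rgs5.

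UMIs were summed per class and library, with at least 10 nuclei, and tested with edgeR 4.0.16 in R 4.3.3 (TMM factors, filterByExpr, quasi-likelihood test, Benjamini-Hochberg adjustment over all genes tested, threshold 0.05). Class and type contrasts had the library as a block, and neuron types needed 3 libraries. Standard errors are the log2 fold change divided by the square root of the test statistic. DESeq2 1.42.0 was an alternative, and the scripts were tested on simulated data. Summaries used Python 3.11.15. P-values of the comparisons of treatments within a class measure the spread between 2 pools of 2 mice per treatment. Those with the library as a block measure the spread left within libraries, taken over both treatments. These are the class and neuron type comparisons. The test of the treatment effect in neurons against astrocytes also had the library as a block. Its p-values measure the spread of the difference between neurons and astrocytes over 2 libraries per treatment. Limits for a count of 0 are 3 UMIs and cover counting error only.

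Named genes were every member called between treatments, in neurons and astrocytes the 5 tested members of largest log2 fold change whose treatments did not overlap, in each class the 5 called higher with the largest log2 fold change, in each neuron type the 3 called with the largest, and a list of glial, G protein-gated, M-current, calcium-activated and other channels given whatever their values. Kcnd1, Kcne1l, Kcnh3, Kcnj4, Kcnf1, Kcnc2 and further genes outside this rule were named after their values were seen. Some genes were counted with the rest and are not reported here by name. The members and lists were chosen with earlier results of these data known. No pairing of libraries was taken from the replicate numbers of the labels in the main tests. Alternatives were DESeq2, RLE factors, no filter on low counts, a stricter gate with 8 marker UMIs, all deposited barcodes, sums thinned to the smallest library, neurons split by transmitter, the replicate number as a block and each library left out.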

Additional observations from a re-analysis of the deposited data

Results flagged for a closer look

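The Kcnj10 difference between DOCA-salt and Sham libraries was larger in neurons than in astrocytes. With all libraries and the filter on low counts, edgeR called it in neither class. The log2 fold change in neurons minus that in astrocytes was -0.683, by an interaction term tested with edgeR over all genes (adjusted p = 7.08e-04), and both DOCA-salt libraries had lower neuronal Kcnj10 than both Sham libraries whereas astrocytes overlapped. Astrocyte and oligodendrocyte marker RNA in neurons was lowest in DOCA-salt 1. In CPM the astrocyte list was highest in DOCA-salt 2, at 1804. As a share of its level in astrocytes it was 9.98% and 14.2% in DOCA-salt 1 and 2 and 18.7% and 15.2% in Sham 1 and 2. The part of this RNA in the difference was not tested. Treatment cannot be told apart from the make-up of the punches or the depth of the libraries. With 2 libraries per treatment no group was large enough to look for a single library far from the rest.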

How the results depend on the processing

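Of 159 recomputed counts of calls with all libraries, 128 stayed within 1.5 times of the reported count, as did 69 of 100 with 1 library left out, where an arm of 1 library was assumed to vary like the others. The cause of the changes below was not tested, except that no filter and fewer libraries change what is tested. For members called higher in a class, neurons went from 20 to 36 without a filter, a count not set against the share of all genes in that fit. Endothelial cells went from 0 to 2 with all barcodes, 2 with DESeq2 and 1 under the stricter gate, with 0 to 1 when 1 library was left out. Microglia went from 0 to 1 with all barcodes, DESeq2, split neurons or no filter, and mural cells from 0 to 1 under these and the stricter gate, where the call was Kcnj8, and 1 library left out gave 0 to 1 in microglia and tanycytes.

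Between treatments the counts were 0 in every class. Without a filter they were 3 in neurons, 3 in GABA neurons, 2 in all nuclei, 1 in astrocytes and 1 in oligodendrocytes, and with DESeq2 1 in neurons and 1 in all nuclei. With 1 library left out they ranged from 0 to 10 in neurons, 0 to 13 in GABA neurons, 0 to 6 in all nuclei, 0 to 3 in glutamate neurons, 0 to 2 in astrocytes, 0 to 2 in oligodendrocytes and 0 to 1 in endothelial cells, and the calls above 0 came without DOCA-salt 1 or DOCA-salt 2. The counts without a filter and those with 1 library left out were not set against the share of all genes called in the same fits. They are not read as a result about channels. The replicate block gave 0 in all 9 classes. The deviations of same-numbered libraries had a correlation of -0.277 in neurons over 15776 genes and -0.065 in astrocytes over 9934. Neither was positive, but with 2 libraries per group and punches that differed, this check cannot exclude a pairing. A crossed block, added after seeing the data, gave 7 calls in GABA neurons and 1 in neurons, again without the share of all genes beside them.

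Among neuron types DESeq2 gave 7 calls for Agrp (reported 17), 1 for Ghrh (11), 2 for Pomc (20), 1 for Sst (8), 2 for Tac2 (5), 1 for the Th-gated type (5) and 3 for suprachiasmatic-type neurons (16). In the same order it called 642 of 13704, 297 of 12422, 375 of 15030, 136 of 11987, 117 of 16768, 136 of 14595 and 215 of 15030 of all genes. Those were fewer than with edgeR too. Tac2 had 1 call with all barcodes and 8 without a filter. With 1 library left out the counts ranged from 9 to 17 for Agrp, 2 to 9 for Ghrh, 7 to 20 for Pomc, 3 to 10 for Sst, 0 to 14 for Tac2, 3 to 5 for the Th-gated type, 3 to 17 for suprachiasmatic-type neurons and 7 to 16 for GABA against glutamate neurons.

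Of 65 single-member values, 373 of 405 recomputed with all libraries and 208 of 260 with 1 left out kept their direction and call. Reversals among these were all in neurons between treatments, of members not called. Kcnh3, called lower in neurons against the other classes, was not among the 65 and turned to 0.24 under the stricter gate. With 1 library left out, the log2 fold change ranged from -0.390 to 0.121 for Kcnj11, -0.036 to 0.028 for Kcnj3, -0.108 to 0.11 for Kcnj5, -0.40 to 0.026 for Kcnq5, -0.189 to 0.048 for Kcnma1, -0.67 to 0.47 for Kcnn1 and -0.147 to 0.020 for Kcnip4. Otherwise Kcnj3 was 0.020 without a filter and 0.059 with all barcodes and Kcnq5 0.034 with all barcodes. With RLE factors Kcnj5 was -0.0097 and Kcnn1 -0.0036, and Kcnn1 was -0.066 with the replicate block and -0.081 with the crossed block.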

Other observations

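Within each library, the classes with at least 10 nuclei were ranked by level. Mural cells and tanycytes entered in 2 libraries, and ependymal cells, gated in the same way, in DOCA-salt 2 only. By that ranking 10 members were the highest in the same class in all 4 libraries: Kcnb2, Kcnc1 and Kcnc2 in neurons, Kcne1l and Kcnn2 in astrocytes, Kcnh8 and Kcnip3 in oligodendrocyte precursors, Kcna1 and Kcna6 in oligodendrocytes and Kcnd1 in microglia.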
